A study of Mus musculus with 16 samples.

Results

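An epiblast stem cell-like embryonic stem line of the non-obese diabetic (NOD) mouse strain was compared with embryonic stem (ES) cells of the same strain. The samples were chosen by their titles: 4 arrays of NOD EpiSC-like ES line 1, at passages 5, 7, 9 and 10 (P5, P7, P9 and P10), and 3 arrays of NOD ES cells, so 7 of the 16 arrays of the series. The NOD ES arrays are titled 4K, 43 KP/CH and 85 KP and are called NOD ES replicates 1, 2 and 3. The labels explain neither these suffixes nor the passages of these cultures. All 7 cultures carry the NOD background. Apart from these suffixes, which differ among the NOD ES arrays, the labels name no transgene, drug or treatment for either group. Whether a suffix stands for a factor or drug given to a culture cannot be told from the labels. The EpiSC-like ES group is 1 line sampled at 4 passages, so its spread is that between passages of a line, not between lines. All p-values rest on the spread within groups pooled over all 16 arrays of the series, other groups included, which may be technical. The labels' protocols describe mechanical separation of EpiSC-like colonies and, for ES cells, removal of feeder fibroblasts by preplating on gelatin, so the way of isolation and the group cannot be told apart. Epiblast stem cells (EpiSC, P12 and P20) and 129 ES cells labelled mESM (both P8), 2 arrays each and neither titled NOD, served to place the NOD arrays. Both mESM arrays lay on 1 slide, and their log2 signals differed with an SD of 0.199. Their titles do not say whether they are separate cultures. The fit counts the 2 arrays of each label as replicates.

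Mouse pluripotent cells are known in a naive state, which resembles the inner cell mass and is kept by LIF and STAT3, and in a primed state, which resembles the epiblast after implantation and is kept by activin or Nodal and FGF. Naive cells express Zfp42, Esrrb, Tfcp2l1 and Dppa3, primed cells express Fgf5 and Otx2, and both use Pou5f1 and Sox2. NOD is a strain from which ES cells are hard to derive and which tends to settle in the primed state.

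NOD ES replicate 1 stood apart from the other NOD ES arrays and its label is doubtful. Over genes well above background on both arrays of a pair, its log2 signals differed from those of NOD ES replicates 2 and 3 with an SD of 1.09 and 1.11, and from those of an array labelled as an iPS line made from EpiSC with an SD of 0.668. NOD ES replicates 2 and 3 differed from each other with an SD of 0.287 and from the other array of that iPS label with SDs of 0.369 and 0.370. Of the gene spots, 56.8% to 88.5% were well above background on the EpiSC-like ES arrays, against 26.3%, 67.4% and 71.9% on NOD ES replicates 1 to 3, and no gene spot was saturated. The arrays lay on 6 slides, and 1 slide held both groups, with P10 beside NOD ES replicates 2 and 3; the difference within it is given below as the within-slide difference. Results are given with and without NOD ES replicate 1.

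Promoters of a few genes on which the comparison turns are shown as RefSeq gives them for the reference mouse genome GRCm38.p6, not for NOD, as the 250 bases before the gene start. Zfp42 (chr8:43307010-43307259, minus strand) and Nanog (chr6:122707239-122707488, plus strand) are shown because they encode pluripotency factors that fell, and capitals mark the octamer ATTTGCAT in Zfp42 and its shorter form TTTGCAT in Nanog, motifs known to be bound by POU factors such as Pou5f1. The octamer begins 186 bases before the Zfp42 start, and TTTGCAT begins 75 bases before the Nanog start shown.
Zfp42: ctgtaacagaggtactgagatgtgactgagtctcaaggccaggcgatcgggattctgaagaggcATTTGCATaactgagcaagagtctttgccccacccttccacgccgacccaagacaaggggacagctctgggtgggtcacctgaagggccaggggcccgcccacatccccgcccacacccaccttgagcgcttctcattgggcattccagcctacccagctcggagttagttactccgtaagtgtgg
Nanog: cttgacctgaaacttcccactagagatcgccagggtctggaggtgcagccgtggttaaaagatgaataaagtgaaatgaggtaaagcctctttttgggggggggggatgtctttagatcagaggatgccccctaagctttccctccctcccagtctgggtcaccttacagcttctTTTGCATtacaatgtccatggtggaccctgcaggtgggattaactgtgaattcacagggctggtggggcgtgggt
Tex19.1 (chr11:121145893-121146142, plus strand) and Rbmxl2 (chr7:107209195-107209444, plus strand) are germ line genes that fell, and Mlc1 (chr15:88978554-88978803, minus strand) and Fabp7 (chr10:57784673-57784922, plus strand) are among the genes that rose most. In these 4 promoters capitals mark each CG, the dinucleotide that DNA methyltransferases act on, and the count of CG was 15 in Tex19.1, 23 in Rbmxl2, 0 in Mlc1 and 4 in Fabp7.
Tex19.1: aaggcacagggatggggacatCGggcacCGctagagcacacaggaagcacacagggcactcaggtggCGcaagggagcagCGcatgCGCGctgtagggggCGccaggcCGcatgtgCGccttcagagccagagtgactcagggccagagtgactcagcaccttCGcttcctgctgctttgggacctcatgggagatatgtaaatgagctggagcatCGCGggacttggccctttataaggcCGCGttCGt
Rbmxl2: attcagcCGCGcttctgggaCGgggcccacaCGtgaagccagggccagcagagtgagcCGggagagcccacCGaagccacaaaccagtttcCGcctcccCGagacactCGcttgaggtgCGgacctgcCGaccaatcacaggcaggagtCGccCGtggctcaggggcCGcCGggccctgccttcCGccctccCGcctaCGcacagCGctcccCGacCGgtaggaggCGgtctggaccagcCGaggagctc
Mlc1: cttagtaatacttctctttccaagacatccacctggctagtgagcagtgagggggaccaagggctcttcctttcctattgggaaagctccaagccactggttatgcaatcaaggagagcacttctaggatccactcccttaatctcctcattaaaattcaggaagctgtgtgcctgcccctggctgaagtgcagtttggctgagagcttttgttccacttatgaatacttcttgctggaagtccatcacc
Fabp7: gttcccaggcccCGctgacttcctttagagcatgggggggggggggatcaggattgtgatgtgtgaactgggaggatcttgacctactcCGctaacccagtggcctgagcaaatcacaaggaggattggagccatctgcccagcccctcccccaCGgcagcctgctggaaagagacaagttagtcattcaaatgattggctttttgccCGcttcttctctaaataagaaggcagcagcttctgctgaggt
Both motifs were searched on both strands, and every octamer also holds TTTGCAT. Of 32851 promoters of 27025 genes, 1.60% held the octamer and 4.12% held TTTGCAT, the median count of CG was 6, and 27.3% held 15 or more. Of the 164 genes named by rule in the comparison, 112 had 143 promoters in the table, of which 2.10% held the octamer (Zfp42, Il33 and Sfrp2) and 4.90% held TTTGCAT. A count of 15 or more CG was found in 33.3% of the promoters of named genes that rose and in 46.0% of those of named genes that fell, beside 44.8% and 50.7% over all genes that rose or fell. The median count was 15 CG in the promoters of germ cell genes, 15 CG in those of neuroectoderm genes and 4 CG in those of fibroblast markers. It was 13 CG over all genes that rose and 15 CG over all genes that fell. These matches describe the letters alone.

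The EpiSC-like ES line differed from NOD ES cells at a large share of the transcriptome. Levels are log2 signals over each array's 75th percentile, differences are EpiSC-like ES minus NOD ES, and a gene is said to rise or fall where limma's Benjamini-Hochberg adjusted p over all genes tested was under 0.05. Of 23167 genes tested, 9897 (42.7%) changed, 3929 of them upwards (17.0%) and 5968 downwards (25.8%). Without NOD ES replicate 1 the count was 10971 (47.4%), with 4722 genes up (20.4%) and 6249 down (27.0%). On all 4 EpiSC-like ES arrays 4353 genes (18.8%) lay above, and 6641 (28.7%) below, all 3 NOD ES arrays. The median difference over all genes was -0.47, or -0.30 without NOD ES replicate 1, and quantile normalization or the deposited value table put it at -0.10 or -0.08, and the share of calls that were upwards, 39.7% here, at 48.7% or 51.6%. Small differences are therefore to be read against that shift. In RNA of whole cultures, fewer cells of a type and less RNA per cell cannot be told apart.

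Genes of the pluripotency core fell in the EpiSC-like ES line. Of 12 tested members 11 fell (25.8% of all genes did), none rose, and the median difference of the list was -2.87, beside -0.47 over all genes. Pou5f1, the POU factor at the centre of pluripotency, stood at -1.47, -1.52, -1.12 and -0.61 at P5, P7, P9 and P10, against 2.21, 4.41 and 3.75 on NOD ES replicates 1 to 3. Every EpiSC-like ES array was thus below every NOD ES array, with P10 the highest of the passages and replicate 1 the lowest of the ES arrays. The difference was -4.64 ± 0.61 (SE, limma adjusted p = 0.000101), or 24.9-fold lower, and -5.26 without NOD ES replicate 1. Nanog, a homeobox factor of pluripotent cells, stood at -2.42, -2.82, -2.14 and -2.25 in the EpiSC-like ES line, against 0.58, 3.83 and 3.88 in NOD ES cells. Its groups did not overlap either, and it fell by 5.17 ± 0.78 on the log2 scale (limma adjusted p = 0.00027), or by 6.26 without replicate 1. Sox2, the SRY-box partner of Pou5f1, behaved differently: it was at 2.27, 2.01, 2.44 and 2.14 in the EpiSC-like ES line, against 2.04, 3.78 and 3.68 in NOD ES cells. Its groups overlapped through replicate 1, so that the difference of -0.95 ± 0.53 was not called (limma adjusted p = 0.164), whereas without that array Sox2 fell by 1.51 (limma adjusted p = 0.027).

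Among the other members, Dppa4, a nuclear protein of pluripotent cells, fell by 9.52 ± 0.75 and was well above background on 1 of 4 EpiSC-like ES arrays. Tdgf1, the co-receptor of Nodal, fell by 4.04 ± 0.51, Utf1, a chromatin-associated factor, by 3.75 ± 0.43, and Trim28, the corepressor of zinc finger proteins that silence retroelements, by 2.96 ± 0.27. Sall4, a zinc finger factor, fell by 2.77 ± 0.48 and Lin28a, which blocks maturation of the let-7 microRNA, by 2.39 ± 0.19. Lin28b (-0.76 ± 0.21) and Zfp281 (-1.07 ± 0.35) fell least. The call of Lin28b was lost with the mean over its probes (limma adjusted p = 0.053), with slide as a block (0.229) and with normexp background correction (0.563), and that of Zfp281 with slide as a block (0.077). Dppa4 differed by -5.35 with normexp, and Sall4 by -1.75 over the mean of its probes.

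Markers of the naive state fell further than the core. Of 18 tested members 15 fell (25.8% of all genes did) and none rose, with a median difference of -5.01, and 16 fell without NOD ES replicate 1. Dppa5a, an RNA-binding protein of ES cells, stood at -0.67, -0.64, -0.78 and -0.50 in the EpiSC-like ES line, against 8.84, 9.32 and 9.25 in NOD ES cells. The groups lay far apart and within each group the arrays were close, and Dppa5a fell by 9.78 ± 0.18 (882-fold, limma adjusted p = 1.45e-10). Tdh, the threonine dehydrogenase that feeds one-carbon metabolism of mouse ES cells, was at -2.35, -2.06, -1.93 and -1.05, against 6.58, 7.81 and 7.83 in NOD ES cells. No EpiSC-like ES array came near a NOD ES array, and Tdh fell by 9.25 ± 0.38 (610-fold, limma adjusted p = 8.53e-08). Zfp42 (Rex1), a zinc finger protein and classical marker of the naive state whose promoter is shown above, was at -5.85, -5.44, -5.56 and -2.71, against 4.80, 5.66 and 5.56 in NOD ES cells. Only P10 was well above background, and Zfp42 fell by 10.23 ± 0.78 (limma adjusted p = 2.6e-06), or fell by 8.32 within the slide that held P10, and differed by -6.73 with normexp.

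Other naive transcription factors fell as well. Esrrb, an orphan nuclear receptor, fell by 9.27 ± 0.82, but was well above background on 1 of 4 EpiSC-like ES arrays and differed by -5.87 over the mean of its probes and -5.89 with normexp. Nr5a2, another nuclear receptor, fell by 7.19 ± 0.56, Tfcp2l1, a LIF target, by 6.05 ± 1.02 and Tbx3, a T-box factor, by 3.97 ± 0.70. Nr0b1, an X-linked orphan receptor, and Dppa3, a maternal factor that protects methylation, were well above background on no EpiSC-like ES array. They are therefore given as bounds, set by the dimmest signal that counted as measured: Nr0b1 was at least 452-fold lower and Dppa3 at least 136-fold lower, or at least 790-fold and 77.4-fold without NOD ES replicate 1. Fbxo15, an F-box protein used as a reporter of pluripotency, fell by 7.21 ± 0.58, Tcl1, a coactivator of AKT, by 3.67 ± 0.69 and Dppa2, the partner of Dppa4, by 2.54 ± 0.29. Among the Krüppel-like factors Klf5 fell, while Klf2 and Klf4 were not called with all 7 arrays. Klf2 stood at 7.39, 6.38, 7.26 and 6.13 in the EpiSC-like ES line, against 6.68, 6.96 and 6.91 in NOD ES cells. Its groups overlapped and the difference was -0.06 ± 0.34 (limma adjusted p = 0.896), but it was 1.00 after quantile normalization and 1.1 in the deposited values, both called, and -1.32 over the mean of its probes (limma adjusted p = 0.0019). Klf4 (-0.96 ± 0.62) overlapped through NOD ES replicate 1 and fell by 1.91 without it, and Klf5 fell by 1.96 ± 0.61. Gbx2 (0.52 ± 0.34) was not called.

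**Figure D1:**
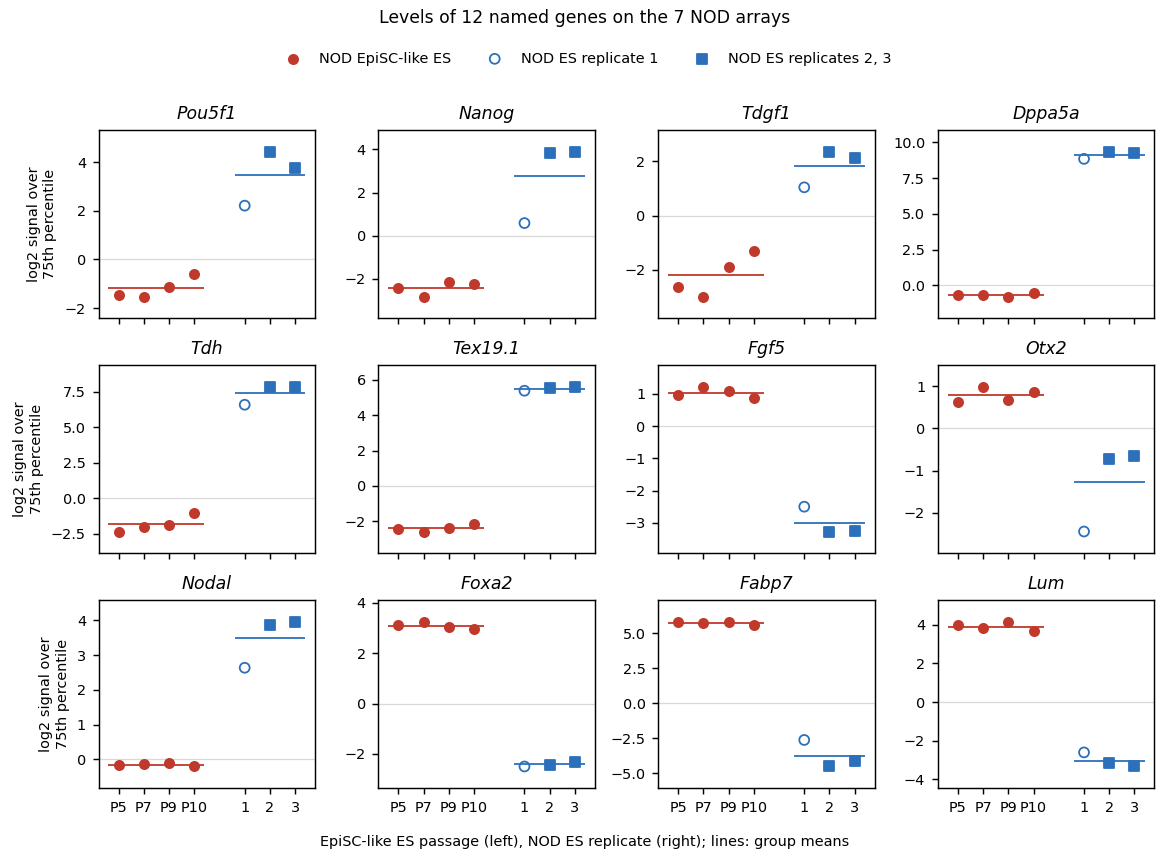
Log2 signal over the 75th percentile of each array (vertical axes) for 12 genes, by passage of NOD EpiSC-like ES line 1 (red points, left) and by NOD ES replicate (blue, right; replicate 1 open), with lines at the group means. Pou5f1, Nanog, Tdgf1, Dppa5a, Tdh, Tex19.1 and Nodal were lower on all 4 EpiSC-like ES arrays than on all 3 NOD ES arrays, and Fgf5, Otx2, Foxa2, Fabp7 and Lum were higher.

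Germ line genes that ES cells express also fell. Of 19 tested members 14 fell (25.8% of all genes did) and none rose, with a median of -3.51. Tex19.1, a mammal-specific protein of germ cells and placenta, was at -2.45, -2.57, -2.39 and -2.15 in the EpiSC-like ES line, against 5.37, 5.53 and 5.58 in NOD ES cells. The arrays of each group lay within less than a log2 unit of each other, and Tex19.1 fell by 7.88 ± 0.16 (236-fold, limma adjusted p = 2.07e-10). Ddx4, the germ cell RNA helicase Vasa, was well above background on no EpiSC-like ES array and at least 78.5-fold lower. Stra8, which retinoic acid induces before meiosis, fell by 5.46 ± 0.68 and Piwil2, a piRNA-binding protein, by 5.12 ± 0.69. Dazl, a germ cell translational regulator, was well above background on no EpiSC-like ES array and at least 21.7-fold lower, a call lost with normexp (limma adjusted p = 0.104). Stra8 differed by -2.81 and Piwil2 by -2.06 with normexp. Rhox5, an X-linked homeobox gene, did not pass the test (-0.20 ± 0.60).

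Of 10 enzymes and readers of DNA methylation, 6 fell and 2 rose, beside 25.8% and 17.0% of all genes. Dnmt3l, the cofactor of de novo methyltransferases in germ cells, was at -2.07, -1.97, -1.71 and -2.04 in the EpiSC-like ES line, against 6.70, 5.97 and 6.00 in NOD ES cells. No other member separated the groups as widely, and Dnmt3l fell by 8.17 ± 0.30 (288-fold, limma adjusted p = 3.83e-08). Tet1 fell by 2.91 ± 0.32 and Tet2 by 2.33 ± 0.57, both oxidases of methylcytosine, and Uhrf1, which brings Dnmt1 to replicating DNA, by 2.89 ± 0.20. Dnmt1 itself fell by 1.41 ± 0.26 and Dnmt3b, a de novo methyltransferase of the epiblast, by 1.11 ± 0.27, while Tet3 rose by 1.89 ± 0.28. The calls of Dnmt3b with slide as a block (limma adjusted p = 0.239), of Tet2 with normexp (0.173) and of Tet3 over the mean of its probes (0.68) were lost.

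Primed epiblast markers moved in both directions. Of 17 tested members 5 rose, 5 fell and 7 did not pass, while over all genes 17.0% rose and 25.8% fell. The median of -0.12 lay near 0 and turned to 0.43 without NOD ES replicate 1 and 0.23 after quantile normalization. Fgf5, the growth factor of the epiblast after implantation, was at 0.96, 1.21, 1.08 and 0.87 in the EpiSC-like ES line, against -2.50, -3.27 and -3.24 in NOD ES cells. It separated the groups completely and rose by 4.04 ± 0.30 (16.4-fold, limma adjusted p = 2.05e-06). Otx2, a homeobox factor of the primed state, was at 0.63, 0.98, 0.68 and 0.86, against -2.44, -0.74 and -0.65 in NOD ES cells. All passages were above all ES arrays, and Otx2 rose by 2.07 ± 0.47 (limma adjusted p = 0.00409), or by 1.48 without replicate 1. Its call was lost with slide as a block (1.55, limma adjusted p = 0.13). Cdh2, the neural cadherin, rose by 4.12 ± 0.56 on its brightest probe, but the mean over its probes gave 1.27 (limma adjusted p = 0.14). Sox11, a neural SRY-box factor, rose by 2.09 ± 0.25 and Sfrp2, a WNT antagonist, by 1.86 ± 0.63, a call lost with slide as a block (limma adjusted p = 0.131).

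Several markers of the primed state were lower in the EpiSC-like ES line. Nodal, the TGF-beta ligand of the epiblast, was at -0.18, -0.15, -0.11 and -0.21, against 2.64, 3.86 and 3.96 in NOD ES cells. The 4 passages were nearly level and all below the ES arrays, and Nodal fell by 3.65 ± 0.35 (12.5-fold, limma adjusted p = 1.08e-05). Foxd3, a forkhead factor of pluripotent cells, fell by 3.49 ± 0.61, Pou3f1, a POU factor of the epiblast, by 1.03 ± 0.24 and Epha1 by 0.96 ± 0.30, a call lost without NOD ES replicate 1 (limma adjusted p = 0.079), with slide as a block (0.36) and with normexp (0.219). With slide as a block the call of Pou3f1 was lost too (0.0507), and Foxd3 differed by -2.20 with normexp. Nodal (-1.85), Epha1 (-1.15) and Foxd3 (-1.05) were also lower in EpiSC than in mESM, by the log2 difference of their means. Pou3f1 (1.18) and Dnmt3b (0.41), which fell in the EpiSC-like ES line as well, were higher in EpiSC than in mESM. Zic2 (0.82 ± 0.32), Zic5 (-0.96 ± 0.53), Sox3 (-0.46 ± 0.55), Lef1 (-0.12 ± 0.59), Fgf8 (0.76 ± 0.40), Lefty1 (0.97 ± 0.69) and Lefty2 (-0.50 ± 0.27) did not pass the test. Without NOD ES replicate 1 Lefty1, an antagonist of Nodal, rose by 1.93 and Zic2 by 1.14.

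Genes of later lineages were higher in the EpiSC-like ES line. Of 16 mesendoderm genes 9 rose (17.0% of all genes did) and 2 fell, with a median of 2.11. Foxa2, a forkhead factor of endoderm and node, was at 3.11, 3.25, 3.06 and 2.98, against -2.50, -2.43 and -2.33 in NOD ES cells. The groups were tight and far apart, and Foxa2 rose by 5.52 ± 0.39 (45.9-fold, limma adjusted p = 1.68e-06). Cer1, a secreted antagonist of Nodal, BMP and WNT, was at 1.86, 2.17, 2.03 and 1.83, against -1.89, -6.56 and -6.56 in NOD ES cells. It was well above background on no NOD ES array and at least 81.9-fold higher in the EpiSC-like ES line (limma adjusted p = 8.82e-05), or at least 194-fold without replicate 1. Foxa1 rose by 4.31 ± 0.48, Sox17, an endoderm SRY-box factor, by 3.42 ± 0.69, T (brachyury), the T-box factor of the primitive streak, by 2.88 ± 0.31, and Gsc, an organizer homeobox gene, by 2.20 ± 0.33. Eomes, a T-box factor of the early streak, fell by 1.72 ± 0.37 and Evx1, well above background on 2 of 4 EpiSC-like ES arrays, by 2.10 ± 0.59. Both calls were lost with slide as a block (limma adjusted p = 0.0532 and 0.717) and with normexp, where the differences were -0.25 and -0.10, so no mesendoderm gene was called downwards with slide as a block. Sox17 differed by 1.59 over the mean of its probes, and T by 1.88 and Foxa1 by 2.78 with normexp. Mixl1 (-1.22 ± 0.52) and Gata4 (-0.11 ± 0.36) did not pass.

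Of 16 neuroectoderm genes 11 rose (17.0% of all genes did) and none fell, with a median of 2.24. Fabp7, the fatty acid-binding protein of radial glia, was at 5.79, 5.72, 5.79 and 5.59 in the EpiSC-like ES line, against -2.62, -4.52 and -4.14 in NOD ES cells. All passages were at nearly the same level, NOD ES cells were well above background on 1 of 3 arrays, and Fabp7 rose by 9.48 ± 0.39 (limma adjusted p = 8.53e-08). Gpm6b, a membrane glycoprotein of neurons and glia, rose by 8.46 ± 0.38 on its brightest probe and by 4.74 over the mean of its probes. Zic1, a zinc finger factor of the dorsal neural tube, rose by 5.71 ± 0.44, Map2, a dendritic microtubule protein, by 4.01 ± 0.43 and Pax6 by 3.42 ± 0.53, whereas Sox1 (0.03 ± 0.31), Tubb3 (-0.40 ± 0.23) and Olig2 (-0.25 ± 0.94) did not pass. Over the mean of their probes Map2 differed by 1.85 and Pax6 by 2.15.

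Extraembryonic endoderm genes were higher too, with 9 of 14 up, none down and a median of 2.36. Pdgfra rose by 4.61 ± 0.57, Col4a1, a basement membrane collagen, by 3.52 ± 0.56 and Dab2, an endocytic adaptor, by 3.28 ± 0.43, or by 2.63 (Pdgfra) and 1.87 (Dab2) over the mean of their probes. Of 12 trophectoderm genes 3 fell and 1 rose, and with slide as a block 1 fell and none rose. Over all genes 25.8% fell and 17.0% rose, so the count says nothing particular of the list. Tfap2c, an AP-2 factor of trophoblast and germ cells, fell by 4.00 ± 0.26 and Krt7 by 2.46 ± 0.57. Gata3 rose by 1.02 ± 0.33. The calls of Krt7 (limma adjusted p = 0.152) and Gata3 (0.289) were lost with slide as a block, and that of Gata3 with normexp (0.186), where Tfap2c differed by -2.55. The fall of Hand1 (-2.18 ± 0.71) rests on signals that were well above background on no array of either group, was lost without NOD ES replicate 1 and had the opposite sign with normexp background correction (0.22, limma adjusted p = 0.90).

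Fibroblast markers rose with these lineage genes. Of 22 tested members 20 rose (17.0% of all genes did) and none fell, and all 22 rose without NOD ES replicate 1. The median was 2.58, or 2.54 with genes of no measured level at their bounds. Lum, a matrix proteoglycan, was at 3.97, 3.84, 4.14 and 3.67 in the EpiSC-like ES line, against -2.60, -3.14 and -3.33 in NOD ES cells. The groups did not overlap, and Lum rose by 6.93 ± 0.58 (122-fold, limma adjusted p = 4.59e-06). Dcn, a second proteoglycan, rose by 6.02 ± 0.65, Col6a1 by 3.99 ± 0.49 and Mmp2, a matrix metalloproteinase, by 3.68 ± 0.33. Col1a1, the main fibrillar collagen, was at 6.69, 7.24, 7.01 and 6.50, against 5.32, 3.67 and 3.62 in NOD ES cells, so that it was high in both groups and the difference (2.65 ± 0.64) smaller. With slide as a block 10 of the 22 markers were called, Col1a1 not among them (limma adjusted p = 0.103).

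Marker genes of 6 cell types and of blood and muscle were summed per array as multiples of the 75th percentile signal. For 10 fibroblast markers, of which 9 or 10 were well above background on each EpiSC-like ES array and 6, 9 and 9 on NOD ES replicates 1 to 3, the sum was 360 to 505 in the EpiSC-like ES line, against 128, 40.7 and 38.5 in NOD ES cells. For 6 neural markers it was 55.8 to 65.4, against 5.32, 3.90 and 4.09 in NOD ES cells. Most of that sum in the EpiSC-like ES line was Fabp7, with log2 signals of 5.59 to 5.79. Of the other neural markers Zic1 and Pax6 rose too, while Sox1, Tubb3 and Olig2 did not pass the test. For 7 extraembryonic endoderm markers it was 5.05 to 6.29, against 2.06, 0.647 and 0.665 in NOD ES cells. Trophoblast markers summed to 0.828 to 1.05 in the EpiSC-like ES line, with Hand1 well above background on no array, against 3.35, 0.707 and 0.755 in NOD ES cells. Naive ES markers summed to 0.461 to 1.00, with Nr0b1 and Dppa3 well above background on no EpiSC-like ES array, against 144, 377 and 378 in NOD ES cells. For the 4 primed markers Fgf5, Otx2, Pou3f1 and Sox3 the sums overlapped, at 6.74 to 8.97 in the EpiSC-like ES line, against 8.87, 7.50 and 8.25 in NOD ES cells, so of the primed markers Fgf5 and Otx2 went with the label EpiSC-like, Pou3f1 went against it and Sox3 did not pass the test. Blood and muscle markers, 2 tested genes each, overlapped between the groups, at 0.911 to 1.04 in the EpiSC-like ES line, against 0.376 to 1.53 in NOD ES cells for blood, and at 0.300 to 0.572, against 0.547 to 0.752 in NOD ES cells for muscle. Between the EpiSC-like ES line and NOD ES cells the fibroblast sum moved in the direction of the gene groups that rose. Array by array the sums did not all run together: P7 had the highest fibroblast sum (505) and P9 the highest neural sum (65.4). The part of the fibroblast sum in the differences between the groups was not tested.

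**Figure D2:**
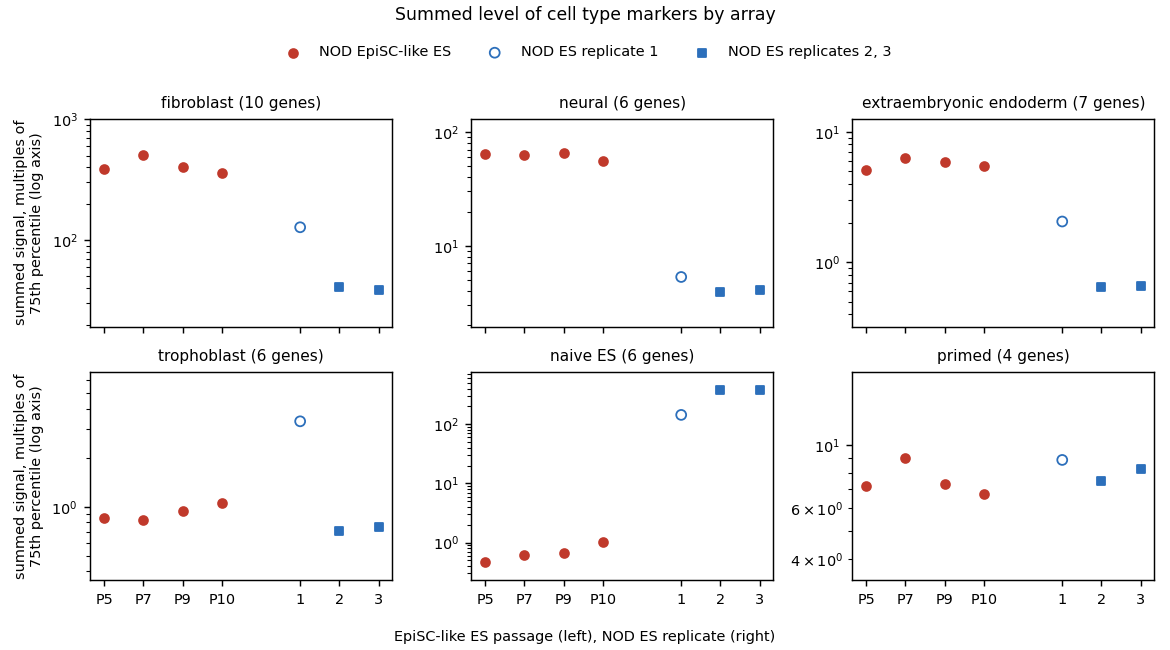
Summed linear signal of marker genes of 6 cell types (vertical log axes, multiples of the 75th percentile of the array), by EpiSC-like ES passage (red, left) and NOD ES replicate (blue, right; replicate 1 open). Fibroblast, neural and extraembryonic endoderm sums were higher on all 4 EpiSC-like ES arrays than on all 3 NOD ES arrays, naive sums were lower, and primed sums overlapped. On the EpiSC-like ES arrays most of the neural sum was Fabp7.

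Receptors, ligands and targets of the pathways that keep both states were examined in turn. In the LIF and STAT3 list 4 of 14 genes rose and 5 fell, beside 17.0% and 25.8% of all genes, with a median of -0.17 (0.01 after quantile normalization). Lifr, the LIF receptor, was at -5.29, -3.89, -6.87 and -2.60 in the EpiSC-like ES line, against 1.16, 1.93 and -0.30 in NOD ES cells. Both groups scattered widely without overlap, and Lifr fell by 5.59 ± 1.05 (limma adjusted p = 0.0012) on its brightest probe and by 1.52 over the mean of its probes, and the call was lost with slide as a block (limma adjusted p = 0.069). Its partner Il6st rose by 1.58 ± 0.40, the feedback inhibitor Socs2 fell by 1.43 ± 0.22, Stat3 did not pass (-0.35 ± 0.28), and Fos (3.37 ± 0.34) and Junb (2.47 ± 0.18) rose. Il6st lost its call with slide as a block (limma adjusted p = 0.10) and normexp (0.205), and Socs2 with slide as a block (0.0503). In the Nodal list 3 of 15 genes rose and 4 fell, shares close to those over all genes (17.0% and 25.8%), so the count says nothing particular of the list. The ligand Gdf3 fell by 6.03 ± 0.48 beside Nodal and Tdgf1, and the receptor Acvr2b fell by 1.29 ± 0.27, a call lost with normexp (limma adjusted p = 0.0842). With normexp Gdf3 differed by -3.30.

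In the FGF and ERK list 7 of 17 tested genes rose and 3 fell, beside 17.0% and 25.8% of all genes. All 4 receptors were called upwards, Fgfr2 most (3.60 ± 0.53) and Fgfr4 least (0.85 ± 0.22), as did Egr1, an immediate early target (2.78 ± 0.22). The ETS factors Etv5 (-2.34 ± 0.22) and Etv4 (-2.32 ± 0.28) fell, Etv5 losing its call with normexp (limma adjusted p = 0.055). The ligand Fgf2 (-2.06 ± 0.69) was called as well, but its groups overlapped, and the call was lost without NOD ES replicate 1 (limma adjusted p = 0.056), with slide as a block (a difference of 0.02) and with normexp (-0.19). Fgfr4 lost its call over the mean of its probes (limma adjusted p = 0.426), with slide as a block (0.178) and with normexp (0.123), and Fgfr2 differed by 1.76 over the mean of its probes. In the BMP list 9 of 13 genes rose and none fell, with a median of 1.62. Id3, a dominant inhibitor of helix-loop-helix factors and BMP target, was at 4.16, 3.86, 4.04 and 4.03 in the EpiSC-like ES line, against 1.31, 1.37 and 1.38 in NOD ES cells. Its groups were tight and apart, and Id3 rose by 2.67 ± 0.26 (limma adjusted p = 1.26e-05), beside Id4 (2.23 ± 0.55), Id2 (2.15 ± 0.29), Id1 (1.54 ± 0.23) and the ligand Bmp2 (2.31 ± 0.53). Id1 lost its call with normexp (limma adjusted p = 0.0918), where Bmp2 differed by 1.5 and the WNT antagonist Nkd1 by 1.97, and Id4 differed by 1.32 without NOD ES replicate 1. In the WNT list 8 of 13 genes rose and 1 fell. The feedback antagonists Nkd1 (3.47 ± 0.51) and Dkk1 (3.19 ± 0.39) and Axin2 (1.40 ± 0.39) rose, and Lgr5, the R-spondin receptor, was well above background on no NOD ES array and at least 7.49-fold higher. Cdx1, a caudal homeobox gene, fell by 3.13 ± 0.76, but with normexp its difference was -0.12 (limma adjusted p = 0.94) and with slide as a block it was not called (0.0504). Axin2 differed by 0.82 without NOD ES replicate 1 and lost its call with slide as a block (limma adjusted p = 0.13) and normexp (0.0514).

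Adhesion genes of epithelial cells fell and factors of the mesenchymal transition rose. Of 14 epithelial genes 8 fell (25.8% of all genes did) and none rose. Epcam, an adhesion molecule of ES cells, was at 0.09, -0.18, -0.02 and 0.37 in the EpiSC-like ES line, against 3.03, 2.96 and 2.78 in NOD ES cells. All 3 NOD ES arrays were level here, replicate 1 included, and Epcam fell by 2.86 ± 0.18 (7.27-fold, limma adjusted p = 8.4e-07). Cdh1, epithelial cadherin, fell by 2.81 ± 0.54, Cldn4, a tight junction claudin, by 3.70 ± 0.65 and Grhl2, a factor that keeps epithelia, by 3.00 ± 0.65. With slide as a block the calls of Cldn4 (-1.41, limma adjusted p = 0.145) and Grhl2 (limma adjusted p = 0.29) were lost, Grhl2's also with normexp (0.10), and 4 of the 14 genes fell while 1 rose. Of 12 mesenchymal factors 9 rose (17.0% of all genes did) and 1 fell, with a median of 2.08. The 1 that fell was Cdh11 (-0.93 ± 0.17), and its direction depended on the probe. Over the mean of its probes it was called upwards (2.62, limma adjusted p = 0.00123), and with normexp its fall was not called (0.074). Zeb2, a repressor of Cdh1, rose by 4.13 ± 0.71, Twist2 by 3.60 ± 0.64, Twist1 by 3.17 ± 0.43 and Vim, an intermediate filament, by 2.91 ± 0.33. With slide as a block 4 rose and 1 fell, and the calls of Twist1 (limma adjusted p = 0.0539) and Twist2 (0.0875) were lost, and over the mean of their probes Zeb2 differed by 2.64 and Vim by 1.86. Twist2 is a fibroblast marker here as well, and the fibroblast sums above moved the same way.

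Imprinted genes rose more often than they fell, with 12 of 23 up, 4 down and a median of 1.44, or 16 up, 5 down and 2.40 without NOD ES replicate 1. Over all genes 17.0% rose and 25.8% fell with all 7 arrays. H19, a non-coding RNA of the maternal allele, was at 4.89, 4.38, 5.18 and 4.66 in the EpiSC-like ES line, against -0.66, -1.05 and -0.88 in NOD ES cells. Both groups were compact, and H19 rose by 5.64 ± 0.48 (49.9-fold, limma adjusted p = 5.49e-06). Dlk1 rose by 5.61 ± 0.83, Plagl1, a zinc finger factor, by 5.54 ± 0.70, Nnat by 5.32 ± 0.52 and Igf2 by 4.13 ± 0.47, and Phlda2 fell by 4.32 ± 0.19. Plagl1 differed by 2.91 over the mean of its probes and Nnat by 3.26 with normexp. Meg3 (1.44 ± 1.43), Rian (2.46 ± 2.03) and Mirg (0.73 ± 1.87), non-coding RNAs beside Dlk1, did not pass.

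Xist, the RNA that coats the inactive X chromosome, was at -0.87, -0.85, -0.94 and -0.98 in the EpiSC-like ES line, against -2.34, -5.09 and -4.86 in NOD ES cells. It was well above background on no NOD ES array and at least 8.38-fold higher in the EpiSC-like ES line (limma adjusted p = 0.00092), a call lost over the mean of its probes (1.13, limma adjusted p = 0.084). Tsix, its antisense RNA, was well above background on no EpiSC-like ES array and at least 22.1-fold lower, a call lost with normexp (limma adjusted p = 0.17). Of 6 Y-linked genes none passed either way, but NOD ES replicate 1 was high and replicates 2 and 3 low. Eif2s3y, a translation factor gene of the Y chromosome, was at -0.08, -0.03, -0.07 and -0.12 in the EpiSC-like ES line, against 1.34, -3.18 and -4.76 in NOD ES cells. The passages were level and lay between the NOD ES arrays, and without replicate 1 Eif2s3y rose by 3.89 (limma adjusted p = 0.0013) and Ddx3y by 3.45 (limma adjusted p = 0.0031).

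Of 5 tested genes of the 2-cell stage 4 fell (25.8% of all genes did), and here too NOD ES replicate 1 decided much of the difference. Zscan4c, a telomere factor that marks a small fraction of ES cells, was at -3.87, -4.63, -3.47 and -4.16 in the EpiSC-like ES line, against 1.21, -0.87 and -1.22 in NOD ES cells. It fell by 3.74 ± 0.73 (limma adjusted p = 0.00164), or by 2.99 without replicate 1, whereas the falls of Tcstv1 and Tcstv3 were then lost (limma adjusted p = 0.078 and 0.15). Zscan4c lost its call with slide as a block (limma adjusted p = 0.079) and with normexp (-1.53, limma adjusted p = 0.18), and none of the 5 genes was called with slide as a block.

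Genes of antigen presentation and of the interferon response were higher in the EpiSC-like ES line. Of 15 tested antigen presentation genes 11 rose (17.0% of all genes did) and none fell, with a median of 2.21. B2m, the light chain of class I molecules, was at 4.31, 4.78, 4.47 and 4.38, against 1.17, 0.15 and 0.17 in NOD ES cells. It separated the groups and rose by 3.99 ± 0.41 (15.8-fold, limma adjusted p = 1.78e-05). The class I heavy chain H2-K1 rose by 3.10 ± 0.43, the immunoproteasome subunit Psmb8 by 3.02 ± 0.58 and H2-Q1 by 2.79 ± 0.29, which the mean over its probes did not call (0.53, limma adjusted p = 0.095). Over the mean of its probes H2-K1 differed by 2.0, and Psmb8 by 2.0 with normexp. Of 18 interferon genes 10 rose and none fell, but without NOD ES replicate 1 11 rose and 2 fell, and with slide as a block 8 rose and 1 fell. Ifit3 was well above background on no NOD ES array and at least 27.6-fold higher, Usp18, which removes ISG15, at least 11.15-fold, and Ifi27 rose by 4.00 ± 0.65.

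Several replication genes fell. Of 20 cell cycle genes 10 fell and 5 rose (25.8% and 17.0% of all genes did), and with slide as a block 9 fell and 1 rose. Ccne1, the cyclin of the entry into S phase, was at 2.48, 2.70, 2.56 and 2.35 in the EpiSC-like ES line, against 5.76, 5.30 and 5.41 in NOD ES cells. The groups lay apart, and Ccne1 fell by 2.97 ± 0.17 (7.82-fold, limma adjusted p = 4.59e-07). Subunits of the replicative helicase fell by 2.73 ± 0.20 (Mcm7), 2.69 ± 0.22 (Mcm5) and 2.32 ± 0.22 (Mcm3), and the inhibitors Cdkn2a (2.17 ± 0.30), Cdkn2b (1.99 ± 0.63) and Cdkn1a (1.44 ± 0.36) rose. With slide as a block the calls of Cdkn2b (limma adjusted p = 0.113) and Cdkn1a (0.13) were lost, as they were with normexp (0.128 and 0.216). Of 12 p53 targets 3 rose and 4 fell, beside 17.0% and 25.8% of all genes, which says nothing particular of the list; among them were the death receptor Fas (4.23 ± 0.34) upwards and Pmaip1 (-2.37 ± 0.19) downwards. Mycn, a MYC factor of stem cells, fell by 2.49 ± 0.25. Myc rose by 1.16 ± 0.23, a call lost with slide as a block (limma adjusted p = 0.107), with normexp (0.115) and over the mean of its probes (0.108).

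Genes of energy metabolism mostly fell by little. Of 20 glycolysis genes 11 fell and 3 rose (25.8% and 17.0% of all genes did), with a median of -0.87. Pfkp, a phosphofructokinase, fell by 2.79 ± 0.43, the glucose transporter Slc2a3 by 2.02 ± 0.33 and pyruvate kinase Pkm by 1.80 ± 0.21. Of 14 cytochrome c oxidase genes 10 fell and none rose, with a median of -0.73, and Cox6b2 fell most (1.51 ± 0.27). The median of all genes was -0.47. After quantile normalization the medians of both lists were -0.24 and -0.26, beside -0.10 over all genes. Without NOD ES replicate 1 both were -0.94, beside -0.30. With slide as a block they were -0.98 and -1.22, beside -0.03, and with normexp -1.12 and -1.03, beside 0.11. Their distance from the median of all genes thus depended on the processing.

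**Figure D3:**
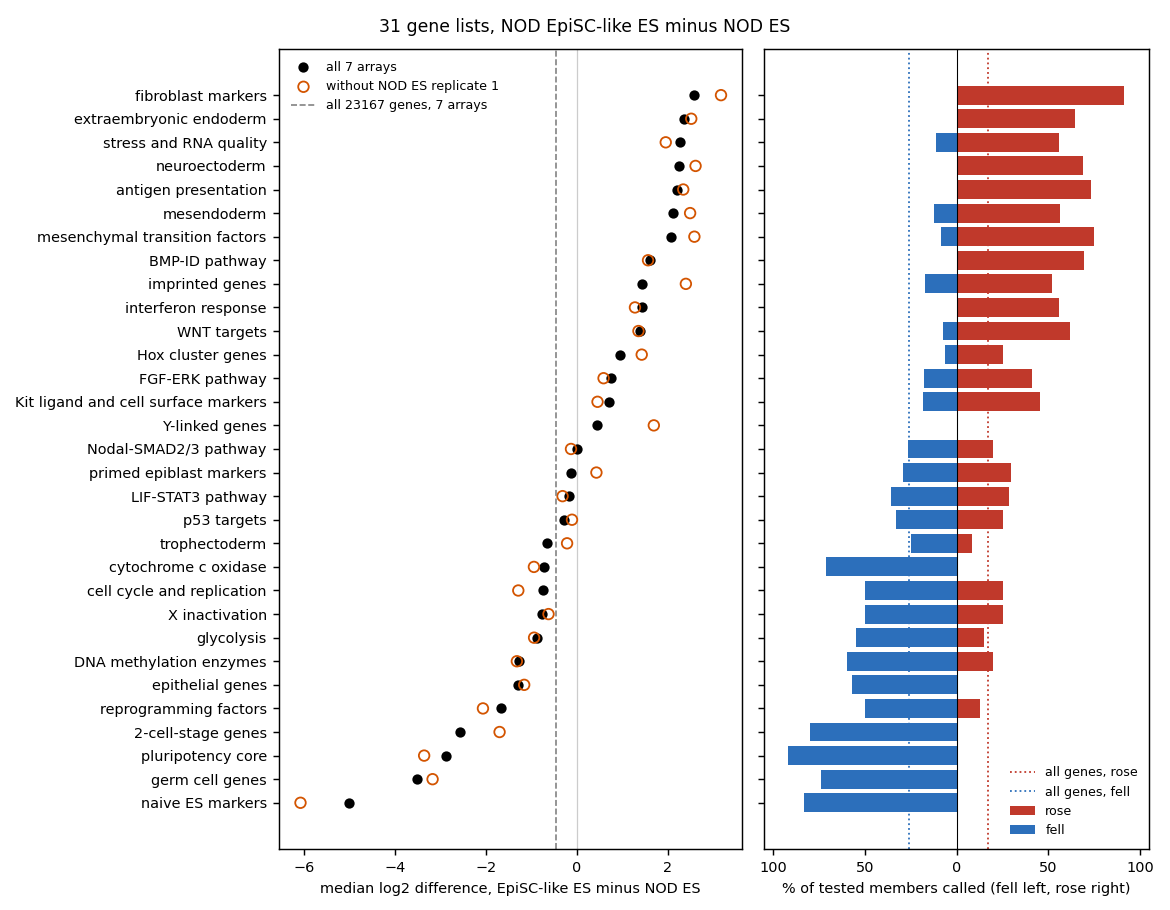
Left, median log2 difference, EpiSC-like ES minus NOD ES, of the tested members of 31 gene lists with all 7 arrays (black) and without NOD ES replicate 1 (open orange), with a dashed line at the median of all 23167 genes (-0.47); right, the percentage of tested members that rose (red) or fell (blue), with dotted lines at the percentages over all genes (17.0% and 25.8%). Naive ES markers had the lowest median (-5.01), and fibroblast markers the highest (2.58).

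Over all named genes the widest differences were in genes outside the classical markers as well. Mlc1, a membrane protein of astrocytes, was at 6.18, 6.39, 6.19 and 5.83 in the EpiSC-like ES line, against -2.65, -6.09 and -5.53 in NOD ES cells. It was well above background on no NOD ES array and at least 1462-fold higher (limma adjusted p = 4.61e-07), while its promoter held no CG. Chl1, a neural adhesion molecule, was at least 330-fold higher, Lbp, which binds lipopolysaccharide, at least 256-fold, Gkn2, a secreted protein of the stomach, at least 152-fold, Gria1, a glutamate receptor subunit, at least 133-fold and the chemokine Ccl4 at least 84.9-fold. Among genes measured in both groups Igfbp5, a binding protein of insulin-like growth factors, rose by 7.80 ± 0.87, the cytokine Il33 by 7.79 ± 0.56, Ecrg4, a secreted peptide precursor, by 7.67 ± 0.45, the chemokines Cxcl1 and Ccl2 by 7.64 ± 0.75 and 7.55 ± 0.42, and Cp, the copper carrier ceruloplasmin, by 7.50 ± 0.43. Rbmxl2, an RNA-binding protein of male germ cells, was at -7.09, -5.44, -6.70 and -6.98, against 3.74, 3.92 and 3.86 in NOD ES cells. It was well above background on no EpiSC-like ES array and at least 668-fold lower (limma adjusted p = 3.83e-08), with the 3 NOD ES arrays level. Acsbg3 was at least 150.5-fold lower, Pramel13, of the Prame-like family, at least 137-fold and AU018091 at least 127-fold, and Morc1, which silences transposons in the male germ line, fell by 8.31 ± 0.67. Igfbp5 differed by 4.89 over the mean of its probes and Morc1 by -4.73 with normexp.

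The 4 passages of the EpiSC-like ES line were close to each other. Over 8010 genes well above background on all 7 arrays the median SD between passages was 0.170 on the log2 scale, against 0.332 between the 3 NOD ES arrays and 0.0605 between NOD ES replicates 2 and 3. With normexp the passages were the wider group, at 0.618, against 0.445 between the 3 NOD ES arrays and 0.0595 between NOD ES replicates 2 and 3. Pairs of passages differed with SDs of 0.346 (P5 and P9) to 0.586 (P9 and P10), and each passage differed from NOD ES replicates 2 and 3 with SDs of 1.47 to 1.57. With 1 array a passage no change over passages could be tested. P10 was the highest passage for Pou5f1, Tdgf1, Tdh, Zfp42 and Dppa4, which stood at -7.41, -5.71, -7.35 and -3.89, and it was also the array with the largest share of spots well above background (88.5%) and the passage that shared a slide with NOD ES replicates 2 and 3. The part of the slide and of that share in these values was not tested.

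On the line that leads from the mean of 129 ES mESM arrays (0) to the mean of EpiSC arrays (1), over 23058 genes, the EpiSC-like ES arrays lay at 0.998 (P5), 0.992 (P7), 0.929 (P9) and 0.877 (P10), against 0.408, 0.207 and 0.209 for NOD ES replicates 1 to 3. The EpiSC-like ES arrays were thus near the EpiSC end and NOD ES replicates 2 and 3 near the ES end, with replicate 1 between. Which passage lay farthest from 1 depended on the processing: it was P10 here, P9 after quantile normalization (0.950, with P10 at 0.992) and P7 with normexp (0.835, with P10 at 1.06). The means were 0.949 ± 0.0572 and 0.275 ± 0.115 (SD, n = 4 and 3). Gene lists took different places. Over neuroectoderm genes the passages lay at 1.05 to 1.08 and over naive markers at 0.871 to 1.05, while primed markers put them at 0.716 to 0.768, mesendoderm genes at 0.774 to 0.804 and fibroblast markers at 1.19 to 1.25. Direct differences were smaller to EpiSC than to NOD ES cells, with SDs between a passage and an EpiSC array of 0.807 to 0.931. No test was made on these places.

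**Figure D4:**
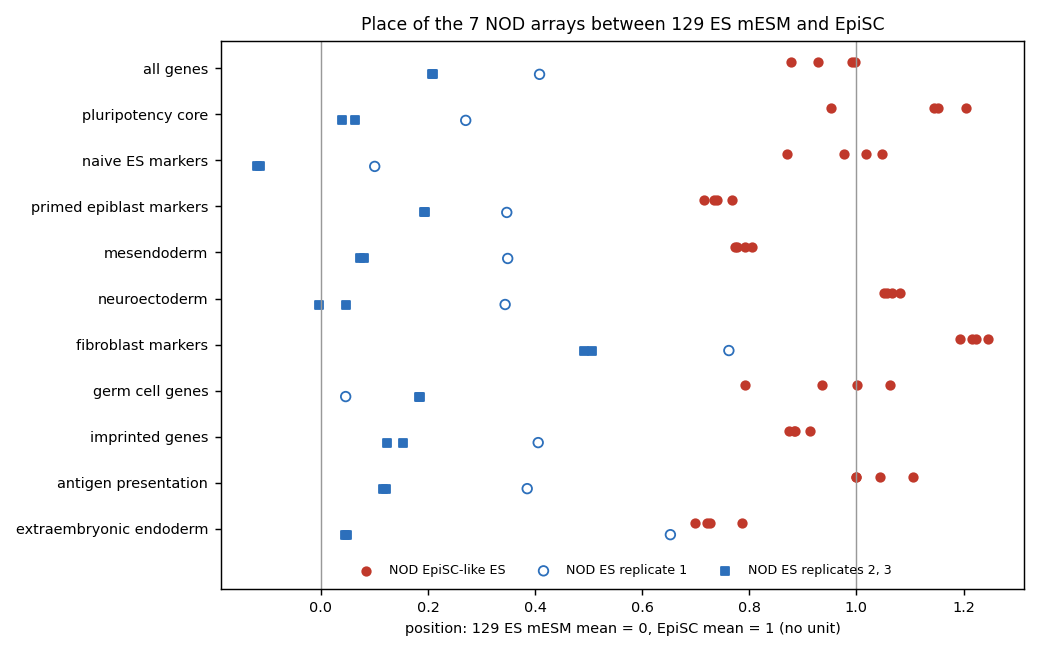
Place of the 7 NOD arrays (horizontal axis, no unit) between the mean of 129 ES mESM (0) and of EpiSC (1), over all genes and over 10 gene lists, for NOD EpiSC-like ES (red) and NOD ES (blue; replicate 1 open). Over all genes the EpiSC-like ES arrays lay at 0.877 to 0.998 and the NOD ES arrays at 0.207 to 0.408.

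Whether the NOD difference departed from that between EpiSC and 129 ES mESM, which share no array with it, was tested as the difference of both changes. It was called for 2382 genes (10.3%), in 901 (3.89%) above and in 1481 (6.39%) below 0. Of the calls 37.8% were above 0, but 49.9% after quantile normalization and 54.7% in the deposited values. The count was 4294 without NOD ES replicate 1, 1580 without P9, 906 and 1070 without each EpiSC array, 759 and 765 without each mESM array, 25 with normexp and 13 with slide as a block. Gkn2 and Ccl4, higher in the EpiSC-like ES line as given above, were well above background on no EpiSC array, and their fitted changes differed by 7.96 and 7.12, calls that were made with normexp and with slide as a block too. Lama1, a basement membrane laminin, rose by 2.28 ± 0.26 in the EpiSC-like ES line, against -3.05 between EpiSC and mESM, and was also called with slide as a block but not with normexp. Fgf5 rose by 4.04 in the EpiSC-like ES line and was 9.65 higher in EpiSC than in mESM, where it was not well above background, and Mest, an imprinted hydrolase gene, rose by 1.95 ± 0.36 and was 9.36 higher in EpiSC. Both differences were called with normexp but not with slide as a block. Rhox5 differed by -0.20 in the NOD comparison and by -6.94 between EpiSC and mESM, and Tex19.1 fell by 7.88 in the EpiSC-like ES line and differed by -5.21 between EpiSC and mESM. The falls of Pou5f1 (-4.64 and -3.86), Nanog (-5.17 and -4.50) and Dppa5a (-9.78 and -10.01) were not called different between both comparisons (limma adjusted p = 0.739, 0.834 and 0.743).

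**Figure D5:**
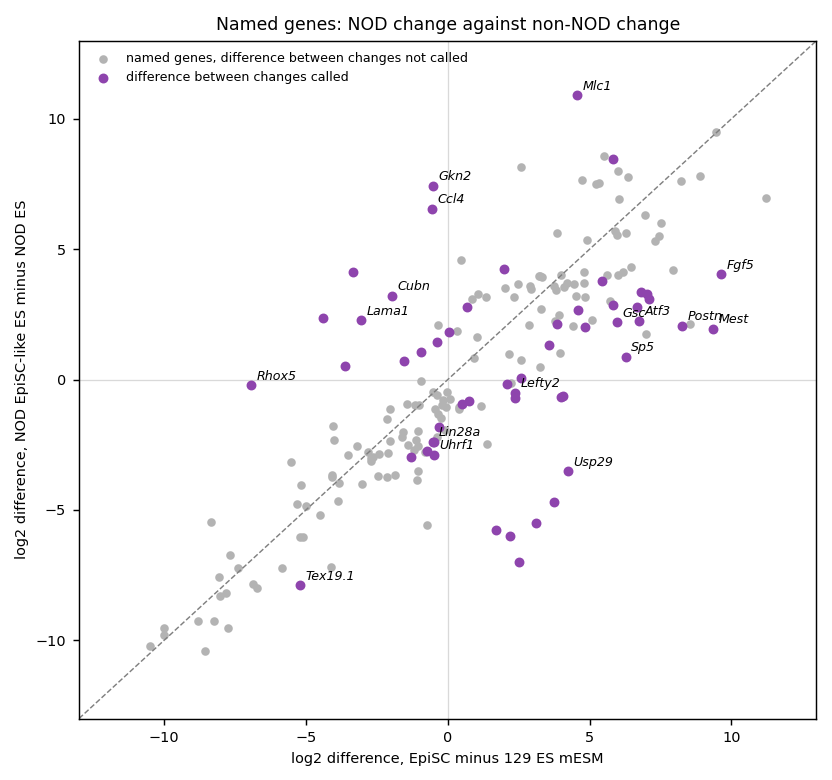
Log2 difference of NOD EpiSC-like ES minus NOD ES (vertical) against that of EpiSC minus 129 ES mESM (horizontal) for the named genes, as fitted, with a dashed line of equal change. Purple points are genes whose 2 changes differed at a limma adjusted p under 0.05, such as Gkn2 (7.44 and -0.52), Fgf5 (4.04 and 9.65) and Rhox5 (-0.20 and -6.94).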

How the data were processed

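Total RNA was hybridised in 1 colour (Cy3) to Agilent mouse arrays, 1 sample an array, and scanned with Feature Extraction 10.1.1.1, per the file headers. The processed signal is an intensity that the software subtracted for background and detrended within each array, per the file headers; the deposited value table holds log2 values and was used as an alternative, with limma the tool in the submitters' processing notes and its settings not given in the sources used here. Here each processed signal was taken as log2 minus the array's 75th percentile over gene spots. Control spots and outlier-flagged spots were left out, spots of a probe were averaged, and probes well above background on at least 2 of 16 arrays were kept (34296 of 41174). The probe of the highest mean stood for its gene, and 71 genes lacked a value on at least 1 of the 7 arrays, which the fit dropped. Of the probes, 22944 were named by accession, 6664 by symbol, 3108 by an older symbol and 8458 kept the name in the files. Group means of 7 groups over 16 arrays were fitted with limma 3.58.1 in R 4.3.3, with Benjamini-Hochberg adjustment over 23167 genes and a threshold of 0.05, and the fit was tested on simulated data. The number of arrays limits the precision.

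Where no array of a group measured a gene well above background, the difference is a bound, "at least N-fold", against the mean of, per array, the higher of its own signal and the lowest signal well above background. Genes were named by rule: all tested members of the core, naive and primed lists, up to 4 members of every other list by size of difference, and the largest differences and bounds over all genes; further list members were chosen after their values were seen, and a few genes that the rule names are not reported here. The gene lists and the samples were chosen with earlier results of these data known. Alternatives were quantile normalization, normexp, the deposited table, other filters, probe means, slide as a block, array weights and leaving out each array.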

Additional observations from a re-analysis of the deposited data

Results flagged for a closer look

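Of the 164 named genes, 7 (4.27%) had 1 EpiSC-like ES array apart from the other 3 by Dixon's criterion, which chance gives in about 5% of groups. P10 was the highest array for Zfp42 (-2.71, others -5.85 to -5.44), Pecam1 (-2.74, others -5.89 to -5.47) and Grhl2 (-1.88, others -3.04 to -2.89). P7 was the highest for Klf5 (2.10, others 1.76 to 1.80) and Cdh2 (1.74, others 1.09 to 1.16), and the lowest for Sox3 (-5.67, others -4.17 to -4.10). P5 was the lowest for Cxcl1 (4.51, others 4.76 to 4.78).

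The NOD difference minus the difference between EpiSC and 129 ES mESM passed limma's adjusted threshold for 63 genes named by rule in either comparison. Among them, it was below 0 for the pluripotency and epiblast genes Lin28a (-1.88), Trim28 (-1.66), Fgf5 (-5.61), Lefty2 (-2.88) and Pou3f1 (-2.21), for Gsc (-3.76), T (-2.94), Acvr2a (-2.28), Sp5 (-5.39), Lgr5 (-4.0), Id2 (-1.71) and Id3 (-1.94), and for Fos (-3.43), Jun (-3.74), Junb (-1.47), Egr1 (-3.90) and Atf3 (-4.49). It was also below 0 for the epithelial and trophoblast genes Krt7 (-3.86), Krt8 (-4.69), Krt18 (-4.66) and Gata3 (-2.93), for Postn (-6.21), Col3a1 (-3.75), Cdh11 (-1.45), Dcx (-2.82) and Cd24a (-1.66), for Tex19.1 (-2.67), Uhrf1 (-2.40), Mest (-7.41) and Peg3 (-2.25), and for Mcm5 (-1.49), Mcm7 (-2.01), Cdk6 (-3.07), Mycl (-2.51), Pmaip1 (-1.89), Sesn2 (-1.80) and Pkm (-1.50). Outside these lists it was below 0 for Trim55 (-9.52), Krt2 (-8.59), Tmem52b (-8.44), Cdcp1 (-8.20), Usp29 (-7.77) and Myo1e (-7.47). It was above 0 for Gbx2 (4.14), Pdgfra (4.14), Lama1 (5.34), Cubn (5.19), Gpm6b (2.64), Rhox5 (6.74), Cd9 (2.23), Fas (2.26), Ifitm3 (1.83), Psmb9 (2.0) and H2-Q1 (2.11), and for Gkn2 (7.96), Muc3 (7.45), Ccl4 (7.12), Cyp4f14 (6.75), Mlc1 (6.34), Lbp (5.57) and Ecrg4 (2.92).

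Most of these calls depended on the processing or on 1 array. With slide as a block 3 of the 63 were called (Lama1, Gkn2 and Ccl4), and with normexp 9 (Fgf5, Egr1, Mest, Gbx2, Gkn2, Ccl4, Mlc1, Trim55 and Usp29). Leaving out 1 mESM array ended 29 or 28 of the calls, and leaving out 1 EpiSC array 23 or 24. These values are fitted, so for genes below background they are no bounds.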

How the results depend on the processing

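The count of 9897 changed genes was 4550 with normexp, 15974 with array weights, 9032 with only the 7 arrays fitted and 8322 to 10971 leaving out 1 array at a time. The count of 2382 genes whose NOD change departed from that between EpiSC and mESM was 25 with normexp, 13 with slide as a block, 10772 with array weights, 731 with both mESM arrays averaged, 7294 without NOD ES replicate 1 and an array of the iPS line from EpiSC together, 3945 with a common floor (chosen after seeing the data) and 759 to 4294 leaving out 1 array at a time. The median SD between passages (0.170, against 0.332 between NOD ES arrays) was 0.618 with normexp, against 0.445, and the cause of these shifts was not tested. Of 3279 values of the 164 named genes under the alternatives, 3059 stayed the same, 131 lost and 31 gained the call, 54 moved and 4 reversed. To stay the same was to keep direction and side of the threshold, save for the 164 within-slide differences, which have no p-value. Of these 130 kept direction and lay within an SD of the main difference, and 34 moved. Among the reversals Klf2 (-0.06) was 1.1 in the deposited table and 1.00 with quantile normalization, Lef1 (-0.12) 0.50 with array weights, and Hand1 (-2.18) 0.22 with normexp. Slide as a block ended 23 calls, normexp 18 and leaving out NOD ES replicate 1 5. Of 1386 values of the 63 genes called in the second comparison 316 lost the call, 60 of them with slide as a block, 54 with normexp and 29 with both mESM arrays averaged. Of 589 list medians 123 moved by more than an SD or changed sign. No paired analysis was possible because the replicate numbers follow accession order and passages have no partner among NOD ES arrays. With 1 slide holding both groups, the slide-blocked difference equals that of 3 arrays, and NOD ES replicate 1 has no slide partner. Weak signals on arrays with few spots above background limit the low genes.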

Other observations

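Immediate early and heat shock genes, which handling of cells is known to induce, moved in the comparison. Of 9 tested genes of stress and RNA quality 5 rose and 1 fell, beside 17.0% and 25.8% of all genes. Jun, an AP-1 subunit, was at 3.57, 3.78, 3.65 and 3.55 at P5, P7, P9 and P10 of the EpiSC-like ES line, against -0.71, -0.52 and -0.49 in NOD ES cells. The groups were compact and apart, and Jun rose by 4.21 ± 0.16. Hspa1a, an inducible chaperone, rose by 3.65 ± 0.18 and Hsph1, its cochaperone, fell by 1.12 ± 0.18, while Dnajb1 (-0.13 ± 0.20), Ddit3 (-0.14 ± 0.16) and Hmox1 (0.35 ± 0.33) did not pass.

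Surface markers separated the groups in part. Kitl, the ligand of Kit, was at 1.29, 1.20, 1.27 and 1.24 in the EpiSC-like ES line, against -2.53, -6.25 and -6.43 in NOD ES cells, where it was well above background on no array, and was at least 50.7-fold higher, or at least 118-fold without NOD ES replicate 1. Alpl, the alkaline phosphatase used to stain ES colonies, was at -1.12, -0.81, -0.84 and -0.98, against 3.39, 4.20 and 3.94 in NOD ES cells, and fell by 4.78 ± 0.21. Prom1 (3.98 ± 0.28) and Cd24a (3.78 ± 0.19) rose, and Kit (-0.05 ± 0.84) did not pass. Of 16 Hox genes 4 rose and 1 fell (17.0% and 25.8% of all genes did), or 7 and 1 without NOD ES replicate 1. Hoxa5 was at least 9.80-fold and Hoxa2 at least 8.20-fold higher in the EpiSC-like ES line, and Hoxb7 rose by 1.64 ± 0.48, a call lost with slide as a block (limma adjusted p = 0.184).

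Among genes well above background on all EpiSC-like ES arrays the widest ranges over passages were those of Cntn5 (-5.00, -0.22, -4.46 and -1.50 at P5, P7, P9 and P10), Elapor2 (-4.91, -1.26, -3.99 and -1.88), Trim55 (-4.08, -0.46, -3.83 and -1.13) and Ifnl3 (-4.56, -0.98, -3.91 and -1.73). In all of these P7 and P10 were above P5 and P9. Dapk3 ran otherwise, with 1.70, -1.82, 1.53 and 0.26.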
